A study of Homo sapiens with 6 samples.

Results

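The AP-1 and early growth response factors are the transcription factors that cells switch on first when a growth factor, stress or adhesion signal reaches the nucleus. The genes described here are the FOS family (FOS, FOSB, FOSL1 and FOSL2), the JUN family (JUN, JUNB and JUND), the zinc finger factor EGR1, the survival gene IER3 and SRF, which encodes the serum response factor. They were chosen by name, as 10 of the 25365 rows of the deposited table, and all 10 were found. Of these, 8 passed the filter on low values (at least 1 FPKM in at least 3 libraries) and were tested, FOSB lay below it, and IER3 was listed at 0 in every library. FPKM, the authors' unit, counts fragments per kilobase of transcript and scales them to library size, so that levels can be set side by side between genes.

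The data are RNA-seq of MDA-MB-231, an established cell line of triple-negative breast cancer grown in serum-containing medium. Cells were harvested 48 h after lipofection with 20 nM siRNA. The si-NRDE2-2 group (3 libraries) received a single siRNA against NRDE2, which encodes a partner of the nuclear exosome helicase, while the si-Control group (3 libraries) received a negative control siRNA. Effects of that siRNA on other transcripts and effects of NRDE2 loss cannot be told apart here. Nothing states that the 3 libraries of a group came from separate cultures, so p-values here reflect the scatter of these libraries alone, which may be technical.

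Proteins of the FOS family bind DNA only as dimers with a JUN protein, whereas JUN proteins can also pair with each other, and the resulting AP-1 complexes drive genes of proliferation, invasion and inflammation. FOS, FOSB, JUNB and EGR1 are classical immediate-early genes, induced within minutes by ERK signalling through SRF and its cofactors and then lost again because their transcripts are short-lived. FOSL1, which encodes FRA1, is known for its high and lasting expression in invasive, mesenchymal-like breast cancer cells, of which MDA-MB-231 is a standard model.

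The promoters were searched for the sites that the factors of this pathway bind, and were read from RefSeq (build GRCh38.p14) as 250 bases before to 50 bases after each annotated start. Of the 10 genes, 8 had an entry, with 9 entries in all because SRF has a pair of them. FOSL1 and IER3 were not among them. The motifs searched on both strands were the AP-1 site TGACTCA, the cyclic AMP response element TGACGTCA and its shorter form TGACGT, which lies within it, the EGR site GCGNGGGCG, and the CArG box, the site of SRF. EGR1 carries a pair of CArG boxes, a pair of short cyclic AMP elements and an EGR site. Its promoter, chr5:138465229-138465528 on the plus strand, is shown whole because EGR1 is one of the genes that rose, with the motifs in capitals.
EGR1 promoter: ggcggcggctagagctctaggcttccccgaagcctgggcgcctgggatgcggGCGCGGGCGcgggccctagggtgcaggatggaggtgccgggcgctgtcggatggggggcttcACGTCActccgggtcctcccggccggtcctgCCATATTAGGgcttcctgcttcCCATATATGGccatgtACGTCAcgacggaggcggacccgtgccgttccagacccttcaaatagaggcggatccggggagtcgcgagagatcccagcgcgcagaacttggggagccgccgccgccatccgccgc

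Among all 35116 promoters of that length, 1.29% hold a CArG box, 4.95% an AP-1 site, 1.85% the full and 7.98% the short cyclic AMP element and 9.43% an EGR site. SRF, which is itself a target of SRF, holds a pair of CArG boxes and an EGR site just upstream of its start in one entry (chr6:43171019-43171318, plus strand) and none of the motifs in the other. FOS and FOSB hold a short cyclic AMP element 64 and 60 bases upstream, FOSL2 holds an AP-1 site just after its start and a short cyclic AMP element 66 bases upstream, and JUND holds a full cyclic AMP element 200 bases upstream and a short one at 87. Their windows are chr14:75278578-75278877 (FOS, plus strand), chr19:45467746-45468045 (FOSB, plus), chr2:28392608-28392907 (FOSL2, plus) and chr19:18281573-18281872 (JUND, minus). The entries of JUN and JUNB held none of these letters in the window. Bases more than 250 upstream of a start were not searched, so a motif not listed for a gene may still lie there. The following stretches, with each motif in capitals, let the sites be compared.
SRF first CArG box: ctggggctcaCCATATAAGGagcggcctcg
SRF second CArG box: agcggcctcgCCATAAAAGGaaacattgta
FOS cyclic AMP element: gttgagcccgTGACGTttacactcat
FOSB cyclic AMP element: aaggggcgggTGACGTaagcaggggg
FOSL2 AP-1 site: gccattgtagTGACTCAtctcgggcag
JUND cyclic AMP element: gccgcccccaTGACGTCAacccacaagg

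The libraries and the knockdown were checked first, and values per library are given in the order of replicates 1, 2 and 3. NRDE2 stood at 0.230, 0.234 and 0.229 FPKM in the si-NRDE2-2 libraries, against 4.39, 4.45 and 3.80 FPKM in the si-Control libraries in the same order, a mean 94.5% lower. The estimated depth, taken from the steps between low values, was lowest in si-NRDE2-2 replicate 3 at 41800000 fragments and highest in si-Control replicate 2 at 57500000. Of 12 basal breast cancer markers 9 had a mean of at least 1 FPKM, with the mesenchymal gene VIM at 1110 to 1150 FPKM in si-NRDE2-2 libraries and 1130 to 1260 FPKM in si-Control libraries and the oestrogen receptor gene ESR1 at or below 0.00356 FPKM throughout. Of 11 luminal markers 7 had a mean of at least 1 FPKM, and their sum was 1090 to 1130 FPKM with si-NRDE2-2 and 1000 to 1130 FPKM with si-Control, mostly from the keratin genes KRT8, KRT18 and KRT19. Of 7 tested luminal markers 2 rose, 1 fell and 4 did not pass at an adjusted p under 0.05 (limma). TFF1 and ERBB2, which went opposite ways, were singled out after their values were seen. TFF1 stood at 6.80, 5.58 and 6.33 FPKM in the si-NRDE2-2 libraries, against 2.38, 2.16 and 2.91 FPKM in the 3 si-Control libraries. ERBB2 stood at 11.1, 10.5 and 10.3 FPKM against 12.6, 12.9 and 12.9 FPKM in the same order. The basal keratin genes KRT5 and KRT14 were near 0, at most 0.0104 and 0.0532 FPKM. Summed immune markers, 2 of 8 with a mean of at least 1 FPKM, were 76.0 to 80.0 FPKM with si-NRDE2-2 and 64.0 to 69.9 FPKM with si-Control. Most of that sum was CD68, at 72.7 to 76.6 FPKM with si-NRDE2-2 and 62.0 to 67.3 FPKM with si-Control. CD14 stood at 2.24 to 2.38 and 1.29 to 1.71 FPKM in the same order. PTPRC, the defining immune marker, stayed at or below 0.0618 FPKM. Summed endothelial markers, 0 of 5 with a mean of at least 1 FPKM, were 1.98 to 2.18 and 1.11 to 1.29 FPKM. Most of that sum was PECAM1, at 0.958 to 1.18 FPKM with si-NRDE2-2 and 0.525 to 0.688 FPKM with si-Control, and KDR. KDR stood at 0.872 to 0.900 and 0.456 to 0.538 FPKM in the same order. CDH5, VWF and TEK stayed at or below 0.0184, 0.0428 and 0.0925 FPKM. Summed fibroblast markers, 3 of 8 with a mean of at least 1 FPKM, were 5.47 to 6.31 and 6.56 to 7.12 FPKM. Among them COL1A1 was lower with si-NRDE2-2, at 2.13 to 2.71 against 3.53 to 3.88 FPKM. PDGFRB was higher, at 1.44 to 1.61 against 1.13 to 1.23 FPKM, and COL1A2 overlapped between the groups. In bulk RNA, fewer cells of a type and less RNA per cell cannot be told apart. The part of these markers in the results below was not tested.

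With si-NRDE2-2, 1 of the 8 tested factors fell and 2 rose at an adjusted p under 0.05 (limma across all tested genes, Benjamini-Hochberg). FOSL1 fell to a ratio of 0.658, JUNB and EGR1 rose modestly, and FOSL2, FOS, JUN, JUND and SRF did not pass the test. Of all 11789 tested genes 44.0% passed, 20.9% higher and 23.0% lower, so 3 of 8 (37.5%) is close to the background and says nothing particular about these factors as a group. The median absolute log2 fold change was 0.09 over the 8 factors and 0.14 over all tested genes. For 3 of the 8 tested factors (37.5%) every si-NRDE2-2 library lay on one side of every si-Control library, 1 below and 2 above, as did 53.5% of all tested genes, 28.3% below and 25.2% above.

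**Figure D1:**
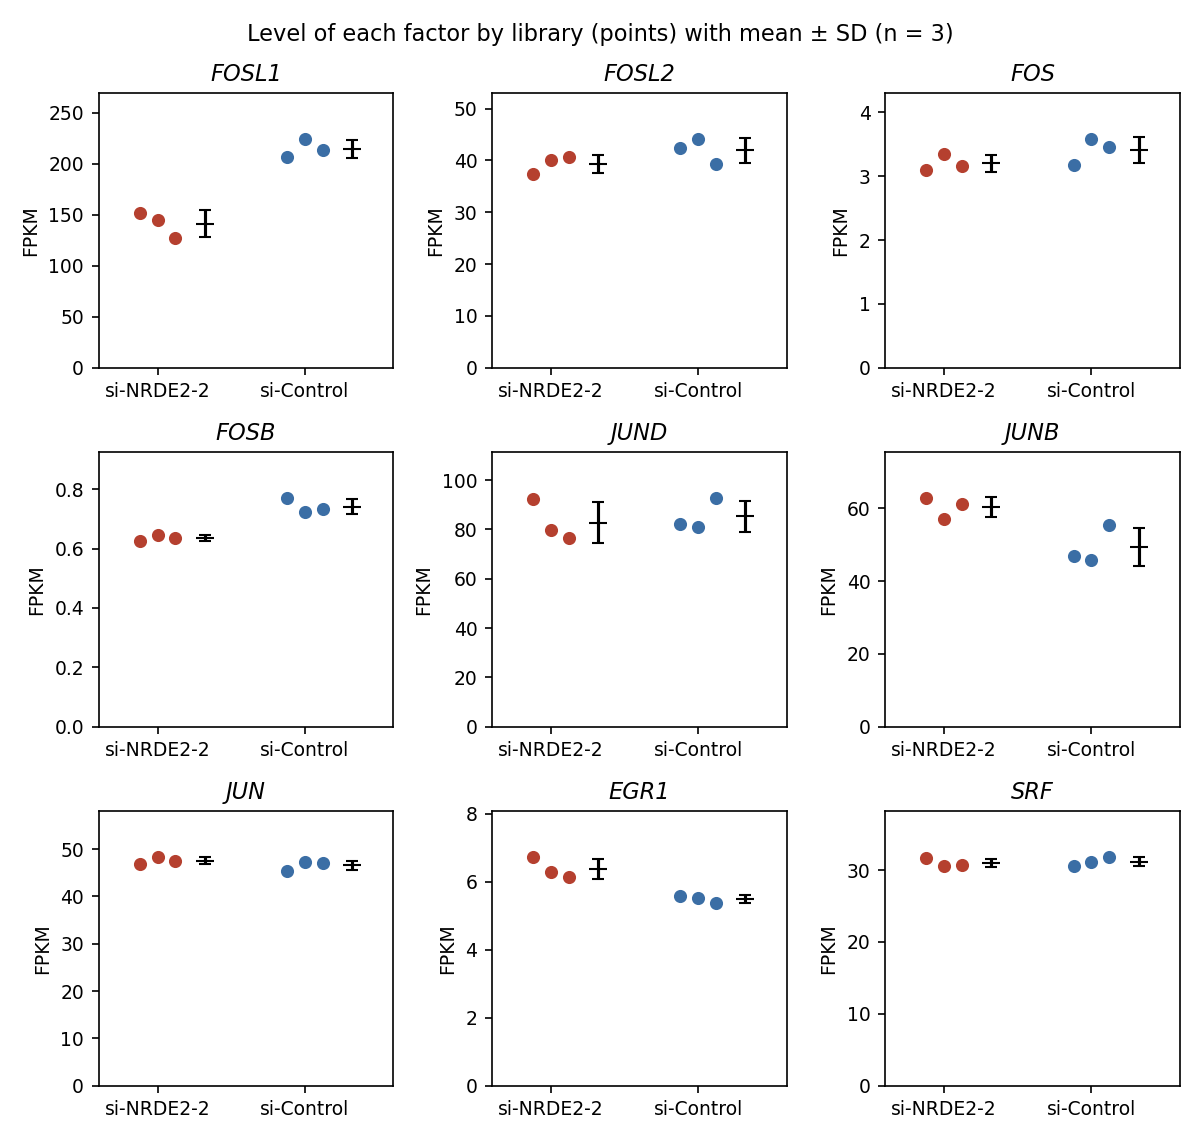
FPKM (vertical axis, from 0) of 9 factors in each library, si-NRDE2-2 in red on the left and si-Control in blue on the right of each panel, with the mean and SD of 3 libraries as a black mark. FOSL1 and FOSB lie lower and JUNB and EGR1 higher in all 3 si-NRDE2-2 libraries, while the groups overlap in the other panels, and IER3, listed at 0 throughout, is not drawn.

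FOSL1 was the most abundant of these transcripts and the one that changed most. It stood at 152, 145 and 127 FPKM in the si-NRDE2-2 libraries, against 207, 224 and 213 FPKM in the 3 si-Control libraries. The lowest si-Control library lay well above the highest si-NRDE2-2 library, and the lowest of all 6 was si-NRDE2-2 replicate 3, also the shallowest. The mean was 141 ± 12.6 FPKM with si-NRDE2-2 and 215 ± 8.99 FPKM with si-Control (SD, n = 3 each), a ratio of 0.658. The log2 fold change was -0.61 ± 0.07 (SE), with a 95% confidence interval of -0.75 to -0.46 and an adjusted p of 3.2e-05 (limma). Of all tested genes, 172 (1.46%) fell at least as far, and by mean level FOSL1 ranked 370 among them. The value rests on an estimated 8900 to 21500 fragments per library.

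The transcript of FOSL1 carries, at base 79 of its 3′ UTR in GENCODE release 29, the letters GACAGTA. An earlier scan of these same fold changes had picked the letters GACGTA, besides GACAGTA and the variant GACTGTA, as frequent in the 3′ UTRs of genes that rose with this siRNA, so their counts are no independent evidence. At least 1 of the 3 was present in 52.9% of 350 called genes that were at least 1.5-fold higher, in 8.89% of 180 called genes at least 1.5-fold lower and in 17.7% of all 10326 searched. FOSL1 fell and carries one of them. FOSL2 and JUN, which did not pass the test, carry GACTGTA, and JUNB and EGR1, which rose, carry none of the 3. The sites are shown with those letters in capitals, because members on both sides of the test carry them. Whether the siRNA acts on these transcripts directly was not tested.
FOSL1 3′ UTR site: agctggcctgGACAGTAtcccacatcc
FOSL2 3′ UTR site: caacacacagGACTGTAagaggactct
JUN 3′ UTR site: ctgcaatagaGACTGTAgattgcttct

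FOSL2, which encodes FRA2, a Fos-related antigen like FRA1, had 37.4, 40.0 and 40.6 FPKM in the si-NRDE2-2 libraries, against 42.4, 44.1 and 39.3 FPKM in the 3 si-Control libraries. The groups overlapped, because si-Control replicate 3 lay among the si-NRDE2-2 values. The log2 fold change was -0.09 ± 0.05 with a 95% interval of -0.21 to 0.02 (adjusted p = 0.183, limma). Without si-Control replicate 3 it was -0.14 and passed the test (adjusted p = 0.0368, limma), within a range of 0.0368 to 0.519 over 17 alternatives.

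FOS itself, the prototype of the family and of the immediate-early response, was scarce 48 h after transfection. It had 3.10, 3.35 and 3.16 FPKM in the si-NRDE2-2 libraries, against 3.18, 3.58 and 3.46 FPKM in the 3 si-Control libraries, and the groups overlapped. Its log2 fold change was -0.09 ± 0.07 (95% interval -0.24 to 0.07, adjusted p = 0.352, limma). FOS, FOSL2 and SRF were the members whose 3′ UTR held the AU-rich nonamer TTATTTATT, a class of element that shortens the life of a transcript. That nonamer was found in 8.49% of the 10326 tested genes searched. The pentamer ATTTA, which lies within the nonamer, was present in the 3′ UTR of every member and in 69.8% of the genes searched. Other spellings of the nonamer were not searched. The 3 nonamer sites are printed as a known instability signal of this gene group.
FOS 3′ UTR nonamer: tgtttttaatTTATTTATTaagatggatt
FOSL2 3′ UTR nonamer: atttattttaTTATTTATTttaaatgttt
SRF 3′ UTR nonamer: atggcaccacTTATTTATTgttgcctttt

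FOSB, the family member best known from sustained neuronal stimulation, was below the filter in every library. It had 0.627, 0.647 and 0.635 FPKM in the si-NRDE2-2 libraries, against 0.770, 0.722 and 0.733 FPKM in the 3 si-Control libraries. All 3 si-NRDE2-2 values lay below all 3 si-Control values, at an estimated 100 to 160 fragments per library. With no filter on low values its log2 fold change was -0.19 ± 0.08 and did not pass the test (adjusted p = 0.134, limma over 19230 genes).

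Per length, the FOS family was dominated by FOSL1 in every library. Its summed level was 193, 189 and 172 FPKM in the si-NRDE2-2 libraries, against 253, 273 and 257 FPKM in the 3 si-Control libraries. FOSL1 held 76.5 ± 2.28% of that sum with si-NRDE2-2 and 82.3 ± 0.675% with si-Control (SD, n = 3 each). FOSL2 held 21.4 ± 2.14% and 16.1 ± 0.711%, FOS 1.74 ± 0.123% and 1.31 ± 0.0454%, and FOSB 0.346 ± 0.0229% and 0.285 ± 0.0198%, with si-NRDE2-2 and si-Control in that order. The shares of FOSL1, FOSL2, FOS and FOSB each separated the groups without overlap, where shares of one sum depend on each other. These shares are a description and carry no test.

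**Figure D2:**
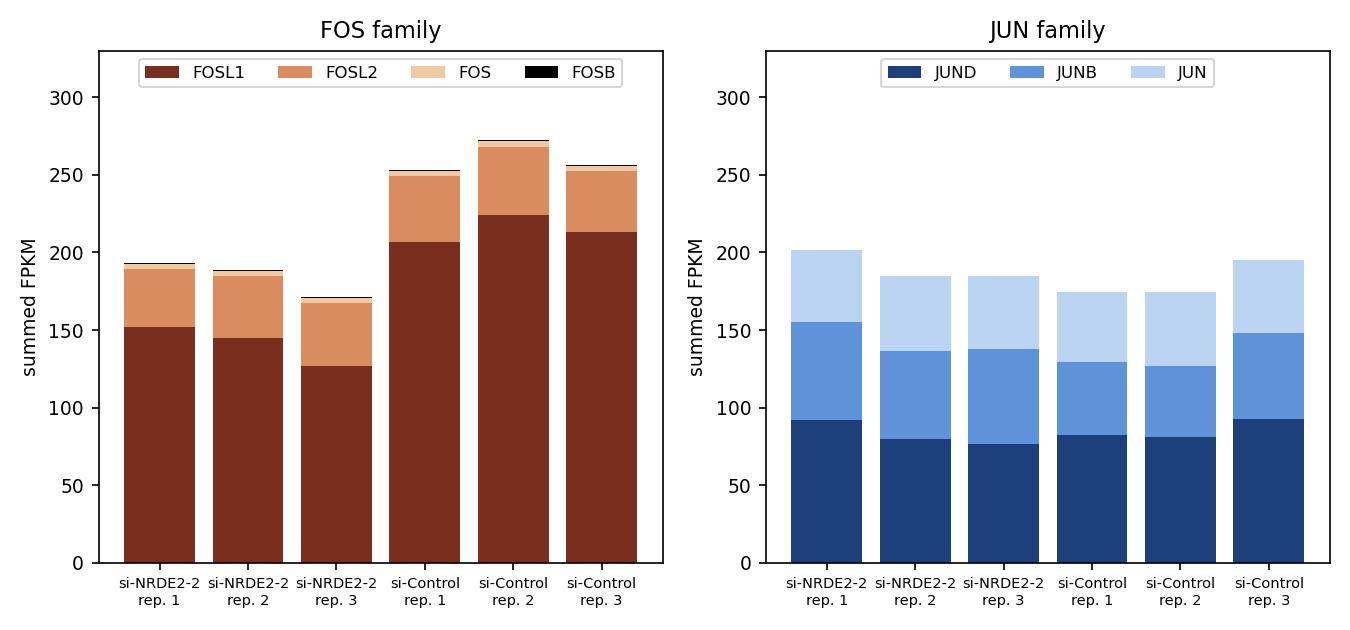
Summed FPKM (vertical axis, from 0) of the FOS family (left) and the JUN family (right) in each library, si-NRDE2-2 first, with each gene as a segment of the bar. The FOS bars reach 172 to 193 FPKM with si-NRDE2-2 and 253 to 273 FPKM with si-Control, the FOSL1 segment making most of the difference, while the JUN bars overlap at 185 to 202 and 174 to 195 FPKM.

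JUNB rose. The gene encodes a JUN protein that activates more weakly than JUN and can oppose it. It had 62.8, 57.2 and 61.1 FPKM in the si-NRDE2-2 libraries, against 46.9, 45.9 and 55.5 FPKM in the 3 si-Control libraries. The groups did not overlap, but si-Control replicate 3, at 55.5 FPKM, lay close to si-NRDE2-2 replicate 2, at 57.2 FPKM. The mean was 60.4 ± 2.84 FPKM with si-NRDE2-2 and 49.4 ± 5.29 FPKM with si-Control (SD, n = 3 each), a ratio of 1.22, and the log2 fold change was 0.29 ± 0.07 (95% interval 0.14 to 0.44, adjusted p = 0.00553, limma). Of all tested genes 10.9% rose at least as far. In GENCODE release 29 an exon of JUNB overlaps one of HOOK2 on the opposite strand. The protocols describe stranded libraries, but no source used here gives the strand setting behind the table, so reads of the pair may not be separated. HOOK2, named for that overlap after its values were seen, stood at 3.97 ± 0.791 FPKM with si-NRDE2-2 and 5.43 ± 0.0848 FPKM with si-Control (log2 fold change -0.46 ± 0.11, adjusted p = 0.00561, limma). Whether reads of one gene were counted for the other was not tested.

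JUN, the founding member and the main transactivating partner of the FOS proteins, was almost level across the 6 libraries. It had 46.8, 48.3 and 47.6 FPKM in the si-NRDE2-2 libraries, against 45.4, 47.3 and 47.0 FPKM in the 3 si-Control libraries. The log2 fold change was 0.03 ± 0.04, and its 95% interval of -0.06 to 0.12 leaves room only for small changes (adjusted p = 0.579, limma). JUND, the JUN protein typical of resting cells, had 92.3, 79.6 and 76.4 FPKM in the si-NRDE2-2 libraries, against 82.4, 81.2 and 92.7 FPKM in the 3 si-Control libraries. Here the libraries of each group spread as widely as those of different groups (log2 fold change -0.05 ± 0.07, 95% interval -0.21 to 0.11, adjusted p = 0.625, limma). JUND has the highest GC content of the 10 transcripts, 69.7%.

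The JUN family as a whole summed to 202, 185 and 185 FPKM in the si-NRDE2-2 libraries, against 175, 174 and 195 FPKM in the 3 si-Control libraries, with overlap. JUNB held 31.7 ± 1.17% of it with si-NRDE2-2 and 27.2 ± 1.11% with si-Control, and JUND 43.3 ± 2.25% and 47.1 ± 0.470% (SD, n = 3 each, si-NRDE2-2 before si-Control). JUN held 23.2 to 26.1% with si-NRDE2-2 and 24.1 to 27.1% with si-Control. The shares of JUNB and JUND did not overlap between the groups and those of JUN did. With FOSL1 lower, the ratio of the FOS-family sum to the JUN-family sum was 0.957, 1.02 and 0.928 in the si-NRDE2-2 libraries, against 1.45, 1.56 and 1.31 in the 3 si-Control libraries. FOS-family transcripts thus outnumbered JUN-family transcripts per length in each si-Control library, and the sums were nearly equal with si-NRDE2-2.

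EGR1 rose as well, at a lower level. It encodes a zinc finger factor that ERK signalling induces through SRF and its ELK cofactors. It had 6.72, 6.27 and 6.15 FPKM in the si-NRDE2-2 libraries, against 5.58, 5.51 and 5.36 FPKM in the 3 si-Control libraries, with no overlap. The mean was 6.38 ± 0.297 FPKM with si-NRDE2-2 and 5.48 ± 0.112 FPKM with si-Control (SD, n = 3 each), a ratio of 1.16 and a log2 fold change of 0.21 ± 0.06 (95% interval 0.09 to 0.34, adjusted p = 0.0106, limma). Of all tested genes 16.4% rose at least as far.

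SRF, the factor known to bind the CArG box motif printed above, hardly differed in transcript level, and its binding was not measured here. It had 31.7, 30.6 and 30.7 FPKM in the si-NRDE2-2 libraries, against 30.6, 31.2 and 31.8 FPKM in the 3 si-Control libraries. The groups overlapped almost wholly, the log2 fold change was -0.01 ± 0.04, and the 95% interval ran from -0.10 to 0.08 (adjusted p = 0.872, limma). The sign of this small value changed under some settings.

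**Figure D3:**
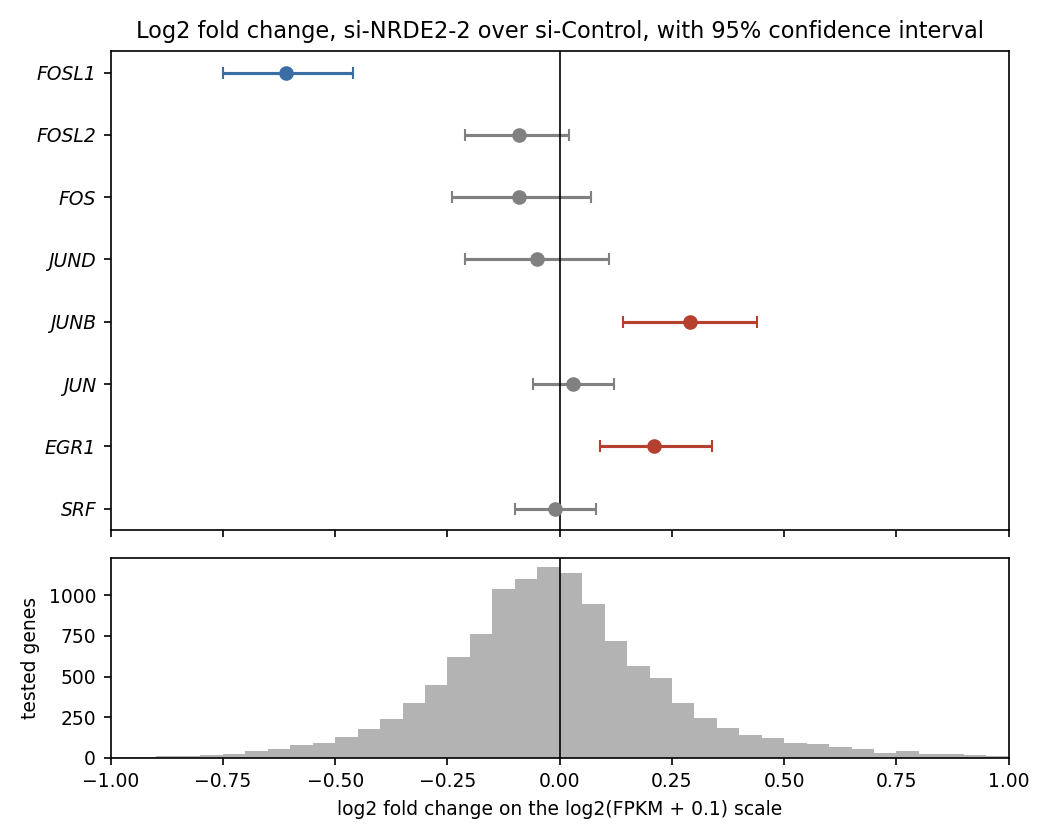
Log2 fold change of si-NRDE2-2 over si-Control (horizontal axis, log2(FPKM + 0.1) scale) for the 8 tested factors with 95% confidence intervals, above a histogram of all tested genes. FOSL1 (blue) at -0.61 lies in the lower tail, JUNB and EGR1 (red) at 0.29 and 0.21 on the upper shoulder, and the 5 grey factors, which did not pass the test, near 0. The 84 genes beyond 1 in either direction are not drawn.

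IER3, an early response gene that protects cells from death, was listed at 0 in all 6 libraries and gives no measurement. All 40 of its nearest protein-coding neighbours on chromosome 6, 20 on each side by RefSeq order, were also at 0 in every library. They sit in an unbroken run of 122 such genes that holds TUBB, FLOT1 and DDR1, of which the tubulin gene TUBB is used by every dividing cell. A 0 there can be a failed estimate, and it does not show that IER3 is silent in these cells. The cause was not tested.

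By mean level the order was FOSL1, JUND, JUNB, JUN, FOSL2, SRF, EGR1, FOS and FOSB in both groups. In si-Control libraries the ranges of JUNB (45.9 to 55.5 FPKM) and JUN (45.4 to 47.3 FPKM) overlapped, so these neighbours did not differ beyond their spread. In si-NRDE2-2 libraries JUNB (57.2 to 62.8 FPKM) lay above JUN (46.8 to 48.3 FPKM) in all 3. JUN lay above FOSL2, and FOSL2 above SRF, without overlap in either group.

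The genes whose pattern over the 6 libraries came closest were found by the smallest root mean square difference of mean-centred log2 values. For FOSL1 they were SUN3 and MAP4K2 at 0.0402 and 0.0468, with log2 fold changes of -0.63 and -0.64. For JUNB they were PNPLA4 and SERPINA1 at 0.0212 each, and for EGR1 PAQR7 and KDM4B at 0.0176 and 0.0198. FOS lay closest to CENPN and PON2, FOSL2 to VCL and RCOR1, JUN to GOLM1 and HNRNPA1L2, JUND to C11orf71 and HAGHL, and SRF to PLOD1 and LRP10, at 0.00855 to 0.0246. Such likeness over 6 libraries in 2 groups is a description of shared group difference and spread.

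Around these factors, 9 lists of pathway genes held 99 distinct tested genes, of which 48 (48.5%) passed the test, against 44.0% of all genes. Of 9 tested bZIP partners and competitors of AP-1, 1 rose and 2 fell, with a median log2 fold change of -0.01 where that of all genes was -0.016. BATF, a partner of JUN proteins that lacks an activation domain, rose by 0.37 ± 0.07, while the stress factor ATF3 fell by 0.41 ± 0.04 and the small MAF protein gene MAFK fell by 0.27 ± 0.05 on the log2 scale (adjusted p = 0.00181, 3.0e-05 and 9.9e-04, limma). Among EGR1's own circle, EGR2, EGR3 and EGR4 were all below 0.25 FPKM in every library and were not tested. NAB1, a corepressor of EGR proteins, rose by 0.25 ± 0.07 (adjusted p = 0.0101, limma), a call lost without si-Control replicate 2 (adjusted p = 0.0504), and NAB2 did not pass.

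Of 5 tested SRF cofactors 2 rose and 2 fell. ELK3, a ternary complex factor, had 28.8 ± 1.21 FPKM with si-NRDE2-2 and 24.2 ± 1.05 FPKM with si-Control (SD, n = 3 each, log2 fold change 0.25 ± 0.05, adjusted p = 0.00186, limma). The other 3 calls, ELK4 (0.21 ± 0.07), MKL1 (-0.22 ± 0.07) and ELK1 (-0.11 ± 0.04), had adjusted p-values of 0.0397, 0.0196 and 0.0427 (limma) and were each lost when some single libraries were left out, at up to 0.123, 0.0785 and 0.160. Of 13 tested cytoskeletal and matricellular targets of SRF, 0 rose and 5 fell, with a median of -0.09, where 20.9% of all tested genes rose and 23.0% fell. The calponin gene CNN2 had 67.9 ± 5.24 FPKM with si-NRDE2-2 and 84.0 ± 2.46 FPKM with si-Control (-0.31 ± 0.06, adjusted p = 0.00122, limma). The matricellular gene CYR61, the actin cross-linker FLNA and the focal adhesion gene ZYX fell by 0.25 ± 0.06, 0.23 ± 0.05 and 0.24 ± 0.07 on the log2 scale, the call of ZYX being lost without si-Control replicate 2 or si-NRDE2-2 replicate 2 or 3 (adjusted p = 0.0604, 0.0519 and 0.0584, limma). Without si-NRDE2-2 replicate 2, and likewise with no filter on low values, 3 of these targets fell.

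Other immediate-early genes moved in both directions. Of 25 tested, 8 rose and 9 fell (68.0% called, median -0.08, median absolute log2 fold change 0.25), where of all tested genes 44.0% passed, 20.9% higher and 23.0% lower, with a median absolute change of 0.14. SGK1, a serum- and glucocorticoid-induced kinase, had 16.0 ± 0.504 FPKM with si-NRDE2-2 and 7.46 ± 0.274 FPKM with si-Control (SD, n = 3 each), and the survival gene MCL1 had 146 ± 5.46 and 73.7 ± 1.15 FPKM. The small GTPase gene RHOB and the Notch target HES1 rose by 0.84 ± 0.05 and 0.83 ± 0.06 (adjusted p = 2.7e-07 and 1.2e-06, limma). The 3 sequences named above were picked from these same fold changes, so their counts here are no independent evidence either. Of the 23 members searched, 7 carry at least 1 of them in their 3′ UTR, against 17.7% of all 10326 genes searched. MCL1 and RHOB, which rose, and ZFP36 and ZFP36L1, which fell, are among the 7, and SGK1 and HES1, which rose, carry none. Since SGK1, MCL1, RHOB and HES1 all rose, the members that fell most were added after their values were seen. They were the nuclear receptor gene NR4A1 at 1.68 ± 0.181 FPKM with si-NRDE2-2 and 2.54 ± 0.0524 FPKM with si-Control, and the stress phosphatase subunit gene PPP1R15A at 79.8 and 110 FPKM, with log2 fold changes of -0.57 ± 0.09 and -0.46 ± 0.05 (adjusted p = 3.6e-04 and 5.5e-05, limma). DUSP1, a phosphatase that shuts off MAP kinases and also named after its values were seen, fell by 0.29 ± 0.05 (adjusted p = 0.00113, limma). ATF3, MYC and ZFP36 fell further than DUSP1, by 0.41 ± 0.04, 0.41 ± 0.05 and 0.37 ± 0.05.

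**Figure D4:**
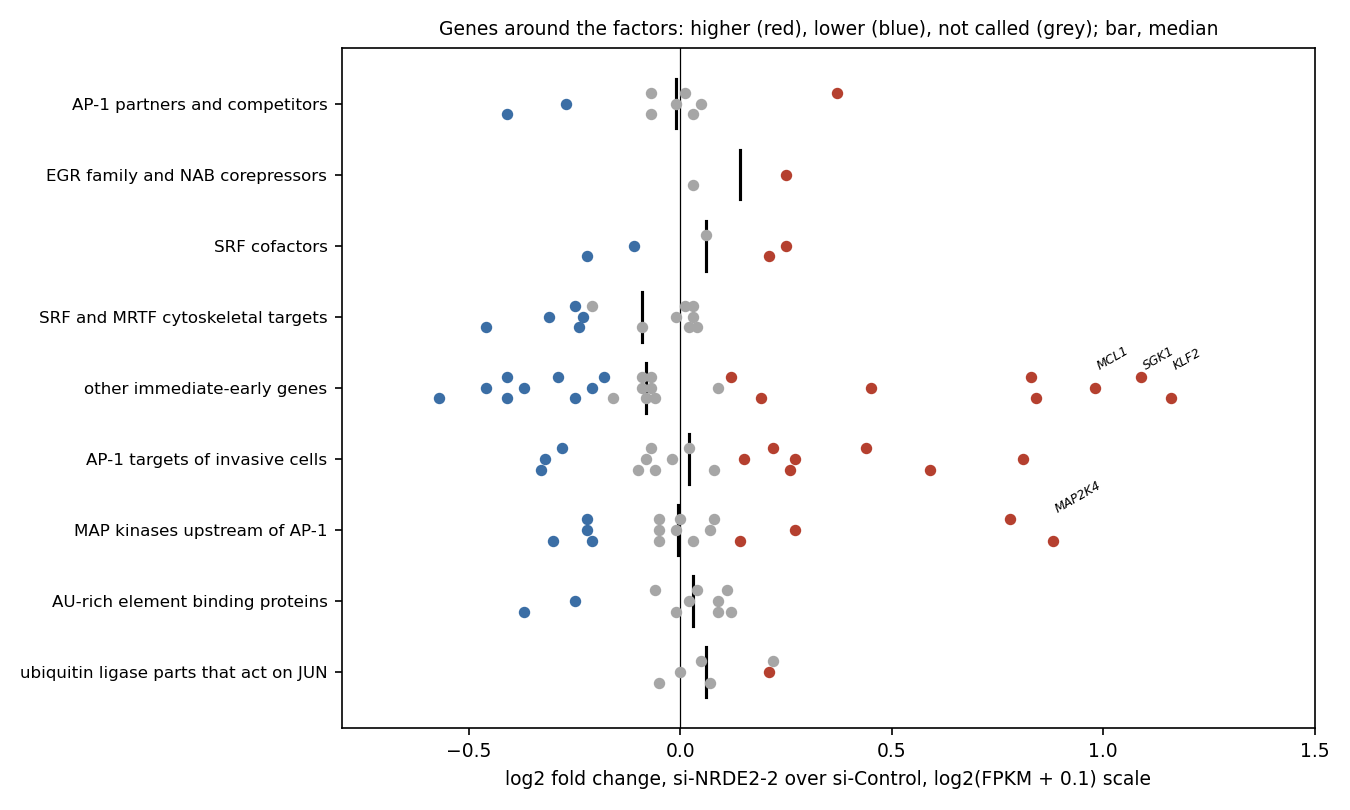
Log2 fold change of si-NRDE2-2 over si-Control (horizontal axis, log2(FPKM + 0.1) scale) of each tested gene in 9 lists around the factors, 1 point per gene, red if it rose, blue if it fell and grey if it did not pass the test, with a black bar at the median of the list. The other immediate-early genes spread furthest, from -0.57 to 1.16.

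Of 17 tested targets of AP-1 in invasive cells, 7 rose and 3 fell (58.8% called), with a median of 0.02. Among all tested genes 44.0% passed, 20.9% higher and 23.0% lower. The chemokine gene CXCL8 had 344 ± 28.8 FPKM with si-NRDE2-2 and 197 ± 30.2 FPKM with si-Control (SD, n = 3 each). Its log2 fold change was 0.81 ± 0.10 (adjusted p = 8.3e-05, limma). The receptor kinase gene AXL and the haem oxygenase gene HMOX1 fell by 0.33 ± 0.04 and 0.32 ± 0.04 (adjusted p = 1.2e-04 and 1.5e-04, limma). The collagenase gene MMP1, a classical AP-1 target added after its values were seen, had 22.6, 22.0 and 23.7 FPKM in the si-NRDE2-2 libraries, against 14.0, 12.9 and 19.2 FPKM in the 3 si-Control libraries (log2 fold change 0.59 ± 0.13, adjusted p = 0.00591, limma). Without si-NRDE2-2 replicate 3 that call was lost (adjusted p = 0.0600, limma), within a range of 1.2e-05 to 0.0600 over 17 alternatives.

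Of 16 tested MAP kinase pathway genes upstream of AP-1, 4 rose and 4 fell, with a median of 0 to 2 decimals. MAP2K4, which activates the JNK and p38 kinases, had 18.5, 19.7 and 19.4 FPKM in the si-NRDE2-2 libraries, against 10.4, 10.5 and 10.2 FPKM in the 3 si-Control libraries (log2 fold change 0.88 ± 0.05, adjusted p = 1.9e-07, limma). The p38 kinase genes MAPK11 and MAPK14 rose by 0.78 ± 0.09 and 0.27 ± 0.04, while MAP2K3 and the JNK gene MAPK8 fell by 0.30 ± 0.06 and 0.22 ± 0.05 (adjusted p = 4.3e-05, 3.1e-04, 0.00182 and 0.00525, limma). The other expressed JNK gene, MAPK9, named after its values were seen, went the other way and rose by 0.14 ± 0.05 (adjusted p = 0.0288, limma), a call lost without si-NRDE2-2 replicate 2 or 3 or si-Control replicate 1 or 2 (adjusted p = 0.0933, 0.109, 0.0778 and 0.122). Of the 16 members searched, 5 carry at least 1 of the 3 sequences in their 3′ UTR, against 17.7% of all 10326 genes searched. This count is likewise no independent evidence. The 5 include MAP2K4 and MAPK14, which rose, and MAPK8, which fell, but not MAPK11 or MAP2K3. Of 10 tested proteins that bind AU-rich elements, 0 rose and 2 fell (20.0% called, a smaller share than the 44.0% of all tested genes). ZFP36, which speeds the decay of FOS-like transcripts, fell by 0.37 ± 0.05 and its relative ZFP36L1 fell by 0.25 ± 0.04 (adjusted p = 1.3e-04 and 0.00123, limma). Of 6 tested ubiquitin ligase parts and adaptors listed around JUN, 1 rose and 0 fell (16.7% called, also a smaller share). The one that rose was TRIB2, at 0.21 ± 0.05 (adjusted p = 0.00395, limma). Whether TRIB2 acts on JUN was not tested.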

How the data were processed

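The authors deposited 1 table of FPKM values per gene and library. The tools named, without their roles, per the submitters' processing notes are DESeq2 1.10.1 and STAR 2.5.1b, beside the genome build hg19. The program, annotation and strand setting behind the FPKM values are not given in the sources used here. Per the labels' protocols, stranded poly(A) libraries were made from total RNA. Columns were matched to samples by the labels' descriptions, and 4 other columns, with values in 3 rows, were not used. Of 25365 rows, 5825 were at 0 throughout.

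Values were used as deposited. Genes reaching 1 FPKM in 3 or more libraries, without 159 small RNA rows, were fitted as log2(FPKM + 0.1) with limma 3.58.1 in R 4.3.3 (trended, robust prior variance, group as the only term, two-sided). The log2 fold changes understate changes of low genes. The code was tested on simulated data. Depth was estimated from 870 low genes whose values came in whole steps (quartiles 48400000 and 57800000 for si-Control replicate 1). Transcript features came from GENCODE release 29, matched for 94.1% of tested genes, with 1 transcript per gene.

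The members, the lists and the tests were chosen with earlier results of these data known. Named genes were the 10 members, NRDE2, up to 4 called genes per pathway list by smallest adjusted p plus up to 2 that moved against the list's majority, and the 2 nearest genes in pattern. A gene that this rule named is not reported here. Alternatives were another pseudocount, filter, scaling, prior or block, and each library left out.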

Additional observations from a re-analysis of the deposited data

How the results depend on the processing

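The calls of FOSL1, JUNB and EGR1 held under all 17 alternatives, with log2 fold changes of -0.66 to -0.53, 0.24 to 0.38 and 0.18 to 0.25 and adjusted p-values (limma) of at most 9.1e-04, 0.0304 and 0.0368. FOSL2 passed without si-Control replicate 3, and its values with single libraries left out ran from -0.14 to -0.05. SRF changed sign with median-ratio size factors (0.0029), with GC and length trends removed (0.03, chosen after seeing the data) and when single libraries were left out (-0.03 to 0.0035), and JUND did so when single libraries were left out (-0.13 to 0.01). SRF and JUND did not pass the test in any of these, and the cause was not tested. The log2 difference of FOSB was -0.09 with a pseudocount of 1, against -0.19 with 0.1. That of NRDE2 was -2.08 with a pseudocount of 1, against -3.7 with 0.1 and -4.13 with 0.01. All genes called numbered 3929 to 6216, against 5185. The difference in FOSL1's share of the FOS-family sum was -6.92 to -4.64 percentage points when single libraries were left out. For 37 other genes, 590 alternatives kept the call and 32 lost it, on ELK1, ELK4, ZYX, MKL1, NAB1, MAPK9 and MMP1 (MMP1 without si-NRDE2-2 replicate 3), and 0 changed sign.

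Replicate numbers are shared between the groups. Over all tested genes, the deviations of same-numbered libraries from their group means correlated at -0.123, 0.105 and -0.121. With 3 libraries per group such values cannot show whether same-numbered libraries were handled together, and single genes may differ from this average. With the replicate number as a block 4686 genes passed, and FOSL1, JUNB and EGR1 kept their calls (adjusted p = 1.0e-04, 0.00405 and 0.0214, limma), while ELK1, ELK4 and MAPK9 lost theirs. No measurement of IER3 exists at any setting, and FOSB is limited by its 100 to 160 fragments.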
